A study of Mus musculus with 24 samples.

Results

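The CHOP dependence of the response to ER stress was measured as the difference between responses in the 2 genotypes. For each probe set, the change from untreated cells to 8 h of tunicamycin in CHOP-/- cells was taken on the log2 scale, and the same change in wild type cells was subtracted. A negative value therefore means a smaller rise, or a larger fall, without CHOP. The members were all 10833 probe sets, of 12488 on the array, that carry 1 gene symbol, for 8251 genes. Of these, 6780 probe sets for 5692 genes passed a low-signal filter and were tested. Their mean normalized log2 value over all 24 arrays exceeded 5.064, the 40th percentile of the array. That threshold equals a signal of 27.75, called the filter signal below. The remaining members were tested only with that filter off.

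The 4 groups used held 4 arrays each, with the letters A to D. Wild type cells and CHOP-/- cells were each left untreated or given tunicamycin at 2 µg/ml for 8 h. All were mouse embryonic fibroblasts (MEFs), fibroblast cultures grown from mouse embryos, described as primary cells. Passage 3 is given for untreated wild type arrays A to C only. The labels give no solvent or time for untreated cells, and no strain, allele or embryo of origin for either genotype. The labels do not say whether A to D were grown separately; the p-values therefore cover only the variation among these arrays, which could be technical. The 2 groups treated for 4 h entered the model to share its estimate of spread.

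CHOP, the product of Ddit3, is a transcription factor of the C/EBP family. When unfolded protein builds up in the ER, the kinase PERK slows most translation but raises that of the factor ATF4, which switches on Ddit3. ATF6 and IRE1 with XBP1 form the other branches and switch on chaperones and degradation factors. CHOP is best known for its part in cell death after prolonged ER stress. Tunicamycin inhibits the first step of N-linked glycosylation and so triggers all of these branches.

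The deposited values are probe set signals on a linear scale, scaled to a common level in every array. Array medians lay between 51.8 and 67.7 on the 16 arrays, and any pair of the 24 arrays correlated at 0.9035 or above over the tested probe sets. Of 20 probe sets for fibroblast markers, 18 passed the filter, with a summed signal per array between 26890 and 47420. Of 17 probe sets for epithelial markers 3 passed, and of 17 for endothelial markers 3 passed. Leukocyte markers varied within groups, with summed signals of 1270 to 7378 in untreated wild type cells, 972.2 to 6167 at 8 h, 1131 to 2706 in untreated CHOP-/- cells and 888.3 to 2158 at 8 h.

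Ddit3 was measured in every array as a check of the genotype labels. In untreated wild type cells its signals were 296.2, 215.5, 437 and 249.9, and at 8 h they were 3857, 4782.1, 4009.9 and 4883. In untreated CHOP-/- cells they were 7.1, 12.4, 32.3 and 6.9, and at 8 h they were 7.1, 39, 24.5 and 11.4. The genotypes did not overlap at either time, and 3 of the 4 CHOP-/- arrays lay under the filter signal at each. CHOP-/- cells were at least 10.3-fold lower untreated and at least 142-fold lower at 8 h, taking the filter signal as the lowest measurable level (exact two-sided permutation p = 0.0286 for each, the smallest that 4 arrays against 4 allow).

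Of 6780 probe sets tested, 2 differed in their 8 h response at a limma adjusted p under 0.05, which is 0.0295%, and both were negative. They were Ddit3 itself and a probe set of Vcam1. No probe set was called positive, where 150 (2.21%) had an unadjusted p under 0.05, and 145 (2.14%) had one in the negative direction. The count depended on the model: array weights called 5 probe sets (2 positive), and the array letter as a random block among groups whose letters pair, chosen after seeing the data, called 6 (3 positive). By comparison, the 8 h response alone was called for 1044 probe sets (15.4%) in wild type cells, 9.03% up and 6.37% down. The response of CHOP-/- cells was called for 876 (12.9%), 6.84% up and 6.08% down. With the filter off, 3 of 10833 probe sets (0.0277%) differed in response, Car6 joining the other 2. At that setting 477 (4.4%) had an unadjusted p under 0.05.

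**Figure D1:**
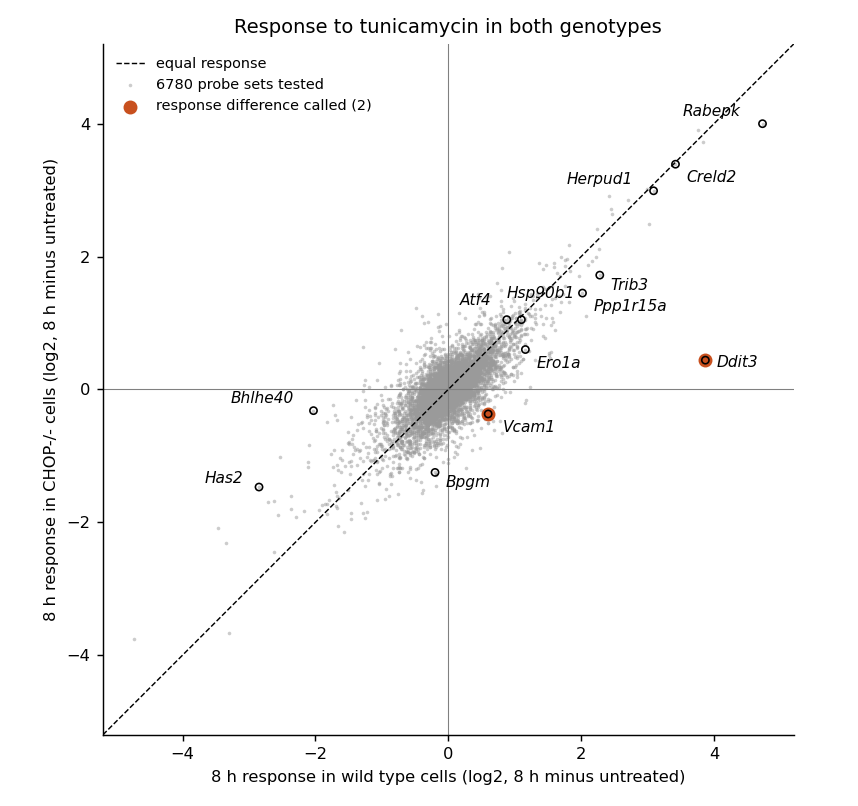
The 8 h response in CHOP-/- cells (vertical axis, log2 of 8 h minus untreated) is plotted against the 8 h response in wild type cells (horizontal axis, same scale), with a point for each of 6780 probe sets. Most points lie near the dashed line of equal response, Ddit3 and Vcam1 (orange) are the 2 called differences, and Herpud1, at 3.09 and 2.99, sits close to the line.

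Ddit3 rose in wild type cells by 3.87 on the log2 scale (SE 0.351), and its change in CHOP-/- cells was 0.44 (SE 0.351, adjusted p = 0.474). The response difference was -3.43 (SE 0.496, 95% interval -4.45 to -2.40, adjusted p = 0.00317). It is not an exact size, because 3 of the 4 CHOP-/- arrays lay under the filter signal both untreated and at 8 h. Since the gene is the one deleted, this value describes the genotype rather than a target of CHOP.

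Vcam1 encodes an adhesion molecule of the immunoglobulin family that binds integrins on leukocytes. On the called probe set its signals were 582.3, 698.7, 633.4 and 563.6 in untreated wild type cells and 960.1, 1077, 971.5 and 784.7 at 8 h. In CHOP-/- cells they were 637.7, 725.2, 594.9 and 647.4 untreated, and 457.2, 512.5, 564.1 and 454.6 at 8 h. Untreated cells of the genotypes overlapped, and at 8 h every wild type array lay above every CHOP-/- array. The 8 h arrays of the genotypes did not overlap on 10.8% of all tested probe sets. Vcam1 rose in wild type cells by 0.60 (adjusted p = 0.00163), while its change in CHOP-/- cells was -0.37 (adjusted p = 0.053). The response difference was -0.96 (SE 0.176, 95% interval -1.33 to -0.60, adjusted p = 0.0476).

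This Vcam1 call lay close to the threshold. It held in 3 of the 16 fits that each left out 1 array (wild type untreated B, wild type 8 h D or CHOP-/- 8 h C), where the difference ranged from -1.05 to -0.89 and the adjusted p from 0.0161 to 0.184. It was lost with arrays centred on their median (adjusted p = 0.488), with only the 16 arrays in the fit (0.104), without the intensity trend (0.0679) and with a pseudocount of 1 (0.0577). Its size in those 4 settings stayed between -0.97 and -0.95. The other Vcam1 probe sets were not called, at -0.24 (95% interval -1.09 to 0.62) and -0.60 (95% interval -1.28 to 0.08). Endothelial cells also carry Vcam1, and the endothelial markers Eng and Flt1 had response differences of -0.05 to 0.58 on their 3 tested probe sets, none called. The summed endothelial markers, 3 of 17 probe sets passing the filter, read 728.8 to 970.6 and 658.4 to 763.6 in untreated and treated wild type cells and 1208 to 1336 and 928.7 to 1297 in untreated and treated CHOP-/- cells. Their part in the Vcam1 result was not tested.

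Car6 encodes carbonic anhydrase VI, for which a stress-inducible form that needs CHOP has been described in mouse cells. Its signals were 114.3, 83.9, 113.4 and 147.6 in wild type cells at 8 h. In the other 3 groups they were 5.6, 2.7, 15.8 and 24.6 (wild type untreated), 5.2, 2.2, 13.2 and 3.8 (CHOP-/- untreated) and 3.3, 2.1, 2.2 and 3.5 (CHOP-/- 8 h). Only the treated wild type arrays thus exceeded the filter signal, and at 8 h Car6 was at least 4.08-fold higher in wild type than in CHOP-/- cells. Without the filter the response difference was -3.23 (SE 0.416, 95% interval -4.09 to -2.37, adjusted p = 0.00089), a value that is not an exact size because 3 groups lay under the filter signal. After 4 h Car6 read 25.5, 23.2, 29.8 and 22 in wild type cells and 5.1, 3.8, 4.2 and 4.3 in CHOP-/- cells, and the 4 h response difference was -1.14 (SE 0.416, adjusted p = 0.996).

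**Figure D2:**
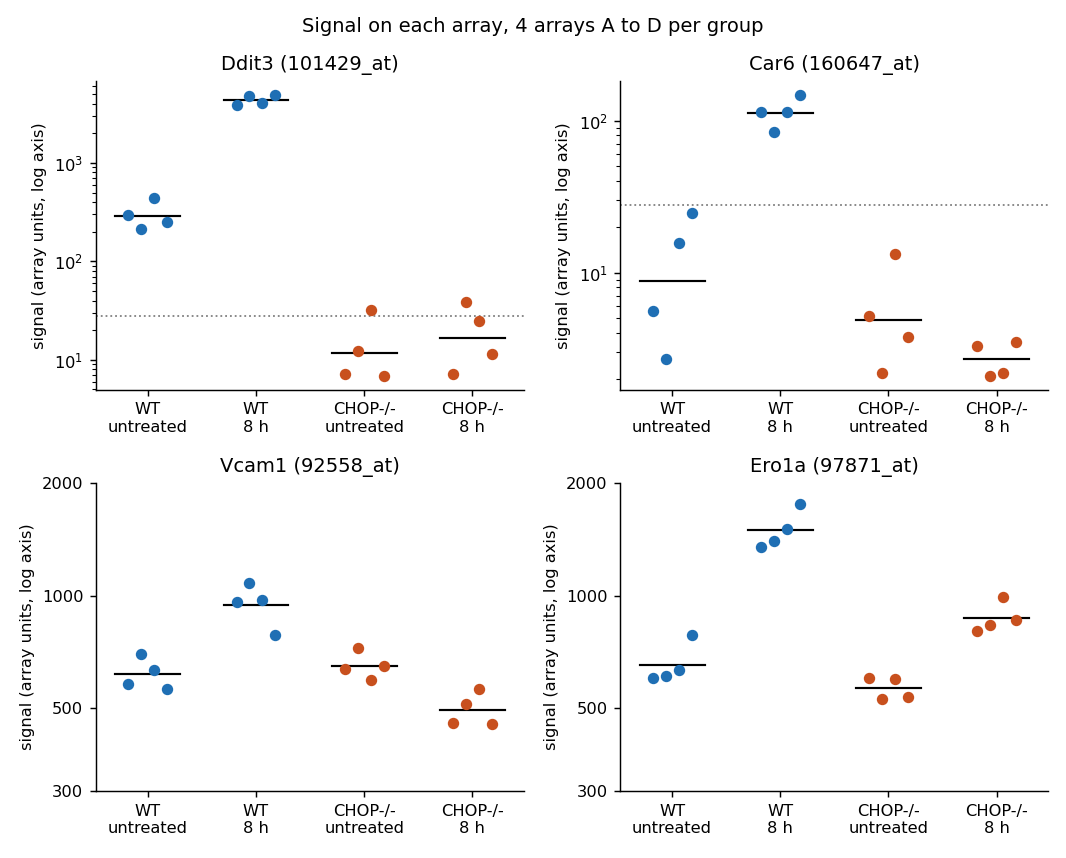
Signals of 4 probe sets (vertical axes, array units on a log scale) are plotted for the 4 arrays of each group, wild type in blue and CHOP-/- in orange, with a bar at the geometric mean. The dotted line in the Ddit3 and Car6 panels is the filter signal of 27.75, which Car6 exceeds only in wild type cells at 8 h. Vcam1 and Ero1a separate the genotypes at 8 h, as do 10.8% of all tested probe sets.

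Of the 6780 probe sets, 560 were called in the same direction in wild type and CHOP-/- cells, and none was called in opposite directions. The 342 that rose in both had a median change of 0.84 in each genotype, and the 218 that fell in both had medians of -0.82 and -0.86. None of the 560 differed in response by limma, and 23 of them (4.11%) had an unadjusted p under 0.05. A call was made in wild type cells alone for 484 probe sets and in CHOP-/- cells alone for 316. In the other genotype, 460 (95%) and 295 (93.4%) of these had a change of the same sign, against 74.4% of all probe sets tested. The response difference was called for 2 of the 484 and for none of the 316, of which 53 had an unadjusted p under 0.05. A call in 1 genotype alone is thus not a called difference between the genotypes. These classes were made from the same arrays as the difference, so nothing is read from their shares. Across the 6780 probe sets the responses of the 2 genotypes, which share no array, correlated at 0.78. Probe sets of 1 gene and genes of 1 pathway are not independent points.

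The width of the intervals sets what could be seen. The 95% interval of a response difference reached a median of 0.5659 log2 to either side, and it lay wholly within 2-fold of 0 for 5149 probe sets (75.94%). It lay within 1.5-fold of 0 for 1635 (24.12%). A lone probe set with the median SE of 0.2736 would have needed a difference of 1.572 to be called. Differences of 1 log2 or more were measured on 73 probe sets (1.077%).

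The ER chaperones and folding enzymes were called up on most probe sets in each genotype. Of 37 probe sets tested, 24 rose in wild type cells and 21 in CHOP-/- cells, where 1 (Txndc12, a thioredoxin-like protein of the ER) fell by 0.43. The median response was 0.71 and 0.57, against -0.01 and -0.01 over all probe sets tested, of which 9.03% and 6.84% rose. The median response difference was -0.02 (0.02 and 0.06 under the other scalings), and none was called. An unadjusted p under 0.05 was found for 2, both Ero1a (5.41% against 4.35% of all probe sets tested). Of the 37 intervals, 32 lay within 2-fold of 0. Several of these genes share a short promoter sequence, the ER stress response element, to which ATF6 and XBP1 bind with NF-Y. It is shown here because most tested probe sets of the genes that carry it rose with and without CHOP. The element was found within 250 bases before the RefSeq start of 4 genes described below, and capitals mark it with 20 bases on each side, on the gene's strand.
Hspa5: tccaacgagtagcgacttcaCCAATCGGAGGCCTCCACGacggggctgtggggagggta
Creld2: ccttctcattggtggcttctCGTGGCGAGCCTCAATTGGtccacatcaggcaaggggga
Ero1b: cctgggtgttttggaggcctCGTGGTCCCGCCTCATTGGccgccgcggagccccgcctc
Hsp90b1: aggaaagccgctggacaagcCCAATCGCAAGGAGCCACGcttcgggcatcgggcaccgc
Hsp90b1: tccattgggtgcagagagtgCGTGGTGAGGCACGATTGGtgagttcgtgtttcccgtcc

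These windows are, in the GRCm38.p6 build, chr2:34772005-34772063 on the plus strand for Hspa5, chr15:88819500-88819558 on the plus strand for Creld2 and chr13:12565662-12565720 on the plus strand for Ero1b. For Hsp90b1 they are chr10:86705618-86705676 and chr10:86705513-86705571, both on the minus strand. The letters searched were CCAAT and CCACG with any 9 bases between them, on both strands, and in Creld2, Ero1b and the second Hsp90b1 window the match is to the opposite strand. They occur in 37 of 32851 promoters in the RefSeq table (0.113%). Of the 16 tested probe sets whose gene has such a match, 11 rose in wild type cells and 11 in CHOP-/- cells. Among the 5513 tested probe sets whose gene has any promoter there, 513 rose in wild type and 380 in CHOP-/- cells. The 16 had median responses of 1.21 and 1.17. Their median response difference was -0.01, with none called and none at an unadjusted p under 0.05. The latter share was 4.35% over all probe sets tested, so few would be expected among 16.

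Hspa5 encodes BiP, the main Hsp70 chaperone of the ER. Its signals were 3577.3, 4603.4, 4283.7 and 3683.2 in untreated wild type cells and 6224.2, 7016.6, 5878.8 and 6999.6 at 8 h. In CHOP-/- cells they were 3225.1, 3861.2, 3378.4 and 3792.3 untreated and 6201.4, 7332.6, 5979.9 and 6323.7 at 8 h. Hspa5 rose by 0.74 in each genotype, and the interval of the difference ran from -0.30 to 0.30. The treated arrays of the 2 genotypes overlapped.

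Creld2, an ER-resident secretory pathway protein, rose by 3.42 in wild type and 3.39 in CHOP-/- cells (difference -0.02, 95% interval -0.76 to 0.71). Hsp90b1, which encodes the ER form of Hsp90, rose by 1.10 and 1.05 (difference -0.05, 95% interval -0.61 to 0.50). The intervals of Creld2 and Hsp90b1 thus exclude a 2-fold difference in response. Ero1b, an oxidase that renews protein disulfide isomerase, lay under the filter signal on 3 of the 4 untreated arrays in each genotype, so its rise has only a lower bound. It was at least 13.4-fold above untreated in wild type cells and at least 13.4-fold in CHOP-/- cells. The fitted response difference of 0.15 (95% interval -0.89 to 1.19) is likewise not an exact size. Dnajb9, an Hsp40 partner of BiP, rose in both genotypes on both of its probe sets, with differences of -0.10 (95% interval -1.33 to 1.12) and -0.22 (95% interval -0.87 to 0.42).

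The products of ER-associated degradation genes return misfolded proteins to the cytosol for the proteasome. Of 19 probe sets, 14 rose in wild type and 13 in CHOP-/- cells, with medians of 0.79 and 0.66. Over all probe sets tested, 9.03% rose in wild type and 6.84% in CHOP-/- cells. The median response difference of the 19 was -0.10, and none of them had an unadjusted p under 0.05. That share was 4.35% over all probe sets tested, so few would be expected among 19. Sel1l, the scaffold of the Hrd1 ubiquitin ligase, rose by 1.96 and 1.71 on its less responsive probe set. Xbp1, which encodes the factor of the IRE1 branch, rose in CHOP-/- cells by 0.55 (adjusted p = 0.00526) and was at 0.31 in wild type cells (adjusted p = 0.109), with a difference of 0.24 (95% interval -0.14 to 0.61).

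Herpud1, a membrane protein of the degradation complex, gave a narrow interval beside a large response. Its signals were 493.6, 474.1, 670.2 and 564.8 in untreated wild type cells and 4680.7, 5110.8, 3976 and 5532.2 at 8 h. In CHOP-/- cells they were 545.2, 707.8, 630.6 and 796 untreated and 5334.1, 5930.7, 4610.8 and 5232.6 at 8 h. Herpud1 rose by 3.09 and 2.99, and the difference was -0.10 (SE 0.151, 95% interval -0.41 to 0.21). After 4 h its signals already reached 3738.9 to 5003.9 in wild type and 4060.1 to 5367.2 in CHOP-/- cells. Whether the array compresses signals this bright, which would narrow such an interval, was not tested. Rabepk, which encodes a Rab9 effector, stood under the filter signal on all 8 untreated arrays. At 8 h it read 382.7, 451.2, 540.5 and 374.3 in wild type cells and 273.4, 322.7, 424.2 and 314.3 in CHOP-/- cells. It was at least 15.4-fold and at least 11.8-fold above untreated, with a response difference of -0.74 (95% interval -1.56 to 0.09).

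The PERK-ATF4 list held 27 tested probe sets for 23 genes, of which 15 rose and 1 fell in wild type cells and 11 rose and 1 fell in CHOP-/- cells. Over all probe sets tested, 9.03% rose in wild type and 6.84% in CHOP-/- cells. The median response of the list was 0.46 and 0.35. Beside Ddit3 none was called in the response difference. An unadjusted p under 0.05 was found for 3 in the negative direction (Ddit3, Ndrg1 and Asns) and 2 in the positive direction (Ddit4 and Vegfa). In all this was 18.5% against 4.35% of all probe sets tested. The share includes Ddit3, the deleted gene, and is raised by it. Atf4 encodes the factor upstream of Ddit3 and rose by 0.88 and 1.05, with a difference of 0.17 (95% interval -0.11 to 0.45). Cebpg, a C/EBP partner of ATF4, rose by 0.80 and 0.83 (difference 0.03, 95% interval -0.32 to 0.39).

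For genes that have been linked to CHOP or share its promoter sequences, short matches near the start are shown with 20 bases on either side, or as many as precede the start. Capitals mark TGATGCAA, the core of the C/EBP-ATF composite site, in Herpud1 and Nupr1 (both on the opposite strand), TGCAATNCC, the CHOP-C/EBP core, in Trib3, and TGACGTCA, the cAMP response element, in Ppp1r15a.
Herpud1: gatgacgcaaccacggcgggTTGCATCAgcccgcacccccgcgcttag
Nupr1: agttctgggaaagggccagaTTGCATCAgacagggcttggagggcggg
Trib3: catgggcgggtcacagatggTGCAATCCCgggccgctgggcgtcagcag
Ppp1r15a: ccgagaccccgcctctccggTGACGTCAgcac

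They lie at chr8:94386297-94386344 (plus strand), chr7:126625553-126625600 (minus), chr2:152344062-152344110 (minus) and chr7:45526269-45526300 (minus) in GRCm38.p6. On both strands these letters occur in 0.791%, 0.487% and 1.55% of promoters. The 33 tested probe sets of genes with TGATGCAA had a median response difference of -0.04 and 2 unadjusted p under 0.05. The 24 with TGCAATNCC had a median of -0.07 and 1, and the 168 with TGACGTCA a median of 0.03 and 8. None of these was called, and the shares of 6.06%, 4.17% and 4.76% were near the 4.35% of all probe sets tested. Ddit3, Car6, Ero1a, Rabepk, Dnajb9, Atf4 and Asns held none of the 4 motifs in this window, and no promoter was matched for Vcam1. Only exact matches to the letters were searched, so sites with variant letters or outside the window were not counted.

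Ero1a encodes the more widely expressed ER oxidase of the Ero1 pair and has been reported as induced by CHOP. On a first probe set its signals were 603.8, 611.3, 631.1 and 786.1 in untreated wild type cells and 1346.7, 1401.6, 1500.8 and 1756.7 at 8 h. In CHOP-/- cells they were 601, 527.8, 600.1 and 537.1 untreated and 803.3, 833.1, 991.2 and 861.8 at 8 h. The treated arrays of the genotypes did not overlap, as on 10.8% of all tested probe sets, and the untreated arrays lay apart by a narrow margin. Ero1a rose in wild type cells by 1.16 and in CHOP-/- cells by 0.60, a difference of -0.56 (95% interval -0.99 to -0.13, adjusted p = 1). On another it rose in wild type cells by 1.31, was at 0.44 in CHOP-/- cells (adjusted p = 0.279) and differed by -0.87 (95% interval -1.59 to -0.15, adjusted p = 1). Each interval excludes 0 when taken alone, but intervals were not adjusted for 6780 probe sets and neither probe set was called.

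Ppp1r15a encodes GADD34, which brings a phosphatase to eIF2alpha and so reverses the action of PERK. Its signals were 286.2, 245.5, 383 and 261.3 in untreated wild type cells and 1232.3, 1373.3, 1237.6 and 1098.8 at 8 h. The CHOP-/- signals were 210.7, 249, 140.9 and 346.6 untreated and 635, 718.8, 561.7 and 584 at 8 h. Treated arrays of the genotypes did not overlap, as on 10.8% of all tested probe sets, and untreated arrays did. The gene rose by 2.02 and 1.45, and the difference was -0.58 (95% interval -1.16 to 0.00, adjusted p = 1).

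Trib3, a pseudokinase that binds ATF4 and Akt, rose by 2.28 in wild type and 1.72 in CHOP-/- cells (difference -0.56, 95% interval -1.34 to 0.21). At 8 h it read 1341, 1557.4, 1422.4 and 1861.4 in wild type cells and 828.4, 652.7, 1020.5 and 815.2 in CHOP-/- cells. Like 10.8% of all tested probe sets, it showed no overlap of the genotypes at 8 h. Nupr1, a small stress-induced chromatin protein, rose in wild type cells by 0.95 and was at 0.46 in CHOP-/- cells (adjusted p = 0.241), a difference of -0.49 (95% interval -1.21 to 0.22). Its treated arrays overlapped. Asns, which makes asparagine, rose by 0.46 in wild type cells and was at 0.13 in CHOP-/- cells (adjusted p = 0.424) on one probe set, a difference of -0.34 (95% interval -0.61 to -0.07, adjusted p = 1). That probe set was already 0.50 higher in untreated CHOP-/- cells (adjusted p = 0.00543). None of these 3 genes was called in the response difference.

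**Figure D3:**
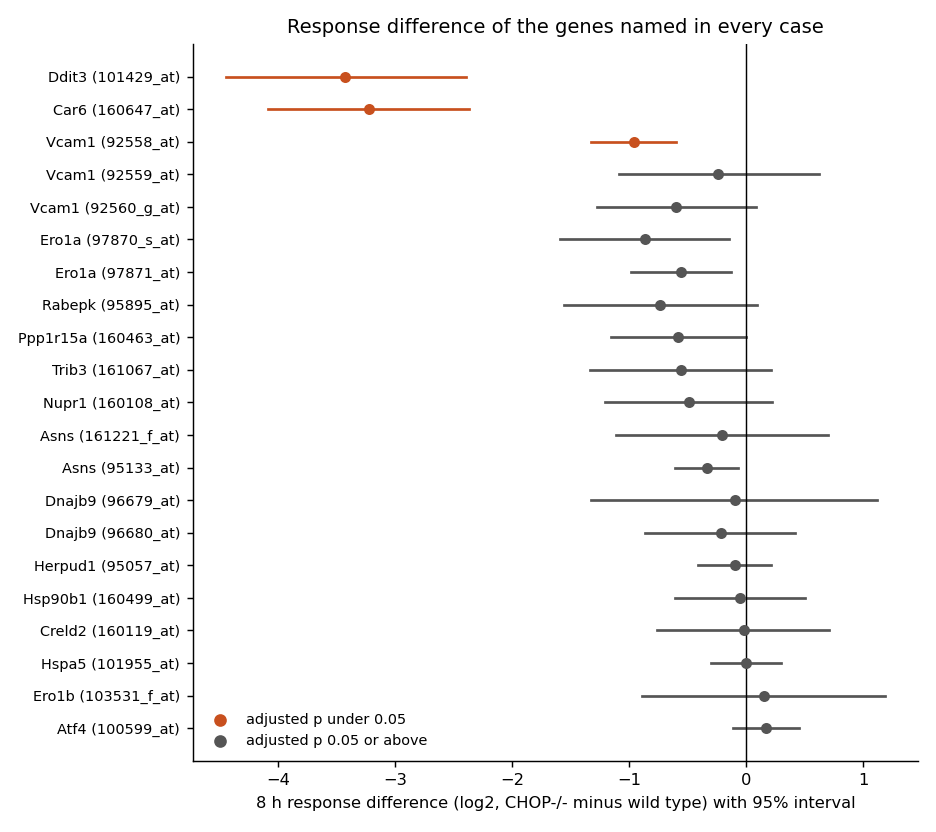
The 8 h response difference (horizontal axis, log2, CHOP-/- minus wild type) of each probe set of 16 genes is plotted as a point with its 95% interval, in orange where the adjusted p is under 0.05. Ddit3, Car6 (from the fit without the filter) and 1 Vcam1 probe set are called, and the intervals of Herpud1, Hspa5 and Atf4 stay within 0.45 log2 of 0.

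The 13 tested probe sets of the list of reported CHOP-dependent genes, which the intervals above partly cover, had a median response difference of -0.11. None was called and 2 had an unadjusted p under 0.05, both for Ero1a (15.4% against 4.35% of all probe sets tested). Stc2, a secreted glycoprotein, rose in both genotypes by 1.59 and 1.90 (difference 0.30, 95% interval -0.27 to 0.88). The response of Atf5 was called in neither genotype and differed by -0.25 (95% interval -0.89 to 0.38). Its level differed between the genotypes by -0.88 untreated (adjusted p = 0.0511) and by -1.14 at 8 h (adjusted p = 0.00277). That 8 h comparison called 3.88% of all probe sets tested. The BCL2 family and cell death list, to which CHOP is most often connected, held 35 probe sets with a median response difference of 0.03, none called. Bcl2l11, which encodes the death factor Bim, was called in neither genotype on 2 probe sets, with differences of -0.11 (95% interval -0.59 to 0.37) and 0.14 (95% interval -0.50 to 0.77). For Bcl2 they were -0.05 (95% interval -0.80 to 0.70) and 0.35 (95% interval -0.44 to 1.15).

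Of 23 probe sets of aminoacyl-tRNA synthetases, enzymes that load amino acids onto tRNA and are ATF4 targets, 15 rose in wild type and 9 in CHOP-/- cells. Over all probe sets tested, 9.03% rose in wild type and 6.84% in CHOP-/- cells. The median response of the 23 was 0.58 and 0.42, and the median difference was -0.09. None was called, with 2 negative and 1 positive at an unadjusted p under 0.05 (13% against 4.35% of all probe sets tested). The negative ones belonged to Wars, at -0.58 and -0.39, whose remaining probe set was at 0.34. The positive one was Mars1, which lies next to Ddit3 on chromosome 10 in the RefSeq table. Its signals were 791.1, 790.8, 898.1 and 728.3 in untreated wild type cells and 540.5, 465.6, 457.7 and 426.9 at 8 h. The CHOP-/- signals were 404, 544.9, 400.2 and 446 untreated and 453.4, 441.8, 477.5 and 481 at 8 h. The untreated genotypes were thus apart, as on 4.76% of all tested probe sets, and the treated ones overlapped. The genotype difference of untreated Mars1 was -0.86 (adjusted p = 0.00616), in a comparison where 59 of 6780 probe sets (0.87%) were called. Its response difference was 0.84 (95% interval 0.36 to 1.31, adjusted p = 0.657). Of the 22 other probe sets for genes on that stretch of chromosome 10, none had an unadjusted p under 0.05 in the response difference. At the share of 4.35% given above, few would be expected.

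**Figure D4:**
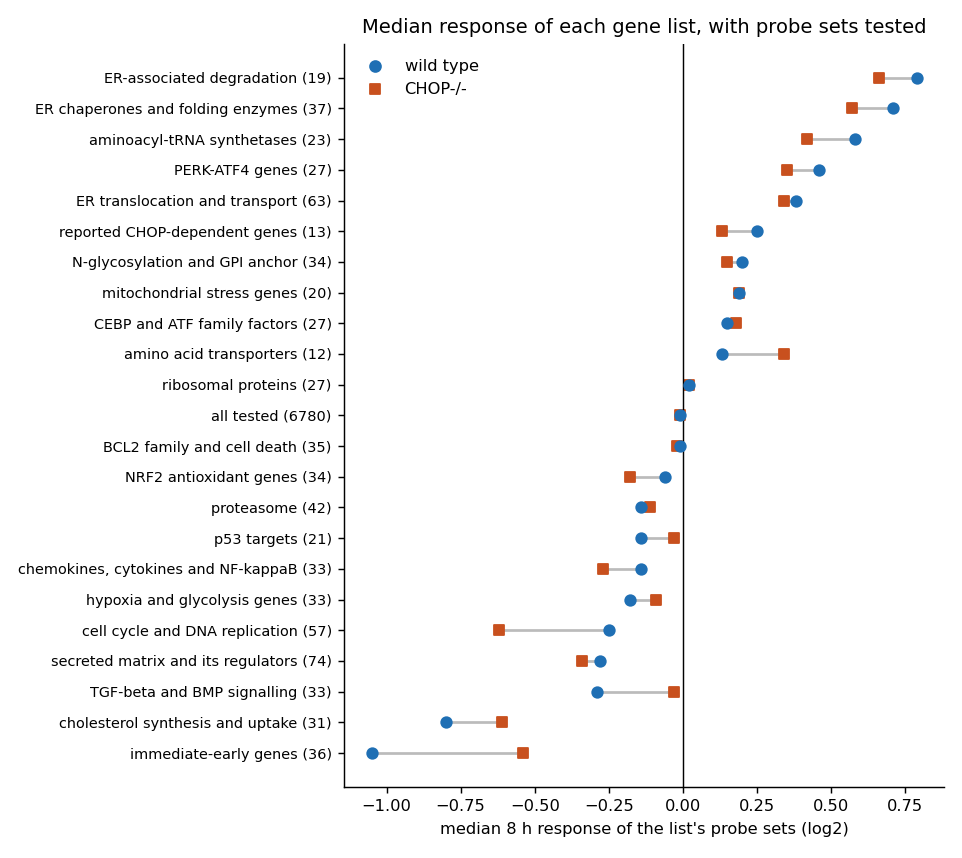
The median 8 h response of each gene list (horizontal axis, log2) is plotted for wild type cells (blue circles) and CHOP-/- cells (orange squares), with the number of probe sets tested in brackets. ER-associated degradation stands at 0.79 and 0.66, all tested probe sets at -0.01 and -0.01, and immediate-early genes at -1.05 and -0.54.

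Cell cycle and DNA replication genes fell on more probe sets in CHOP-/- than in wild type cells. Of 57 probe sets, 26 fell in CHOP-/- cells, and 10 fell and 2 rose in wild type cells, with medians of -0.62 and -0.25. Over all probe sets tested, 6.08% fell in CHOP-/- and 6.37% in wild type cells. The response difference was called for none of the 57. It was negative for 48 of the 57, with a median of -0.32, and an unadjusted p under 0.05 was found for 10 in the negative and 1 in the positive direction (19.3% against 4.35% overall). This list and the immediate-early list were chosen with earlier results of these data known. The list of p53 targets had a larger share, 23.8% of 21 probe sets, with 1 negative and 4 positive. Cell cycle genes are transcribed together in dividing cells, so they are not independent. In bulk RNA, fewer dividing cells and less RNA per cell cannot be told apart. The median difference ranged from -0.38 to -0.15 when single arrays were left out, the smallest size being without untreated CHOP-/- array C.

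Among these genes, Bub1, a kinase of the spindle checkpoint, fell in CHOP-/- cells by 1.37 and was at -0.48 in wild type cells (adjusted p = 0.214), a difference of -0.89 (95% interval -1.60 to -0.18). Aurka, a mitotic kinase, fell in CHOP-/- cells by 0.87 and was at -0.18 in wild type cells (adjusted p = 0.542), a difference of -0.69 (95% interval -1.18 to -0.20). Top2a, which untangles DNA strands, fell in CHOP-/- cells by 0.98 and was at -0.27 in wild type cells (adjusted p = 0.536), a difference of -0.71 (95% interval -1.41 to -0.01). Mcm3, a subunit of the replicative helicase, fell in both genotypes on both probe sets, with differences of -0.50 and -0.40. The positive one was Cdkn2b, an inhibitor of the G1 kinases, which fell in wild type cells by 0.98 and differed by 0.63 (95% interval 0.09 to 1.17).

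Immediate-early genes, which are switched on by growth factor signals without new protein synthesis, were mostly called down in wild type cells. Of 36 probe sets, 21 fell and 1 (Myc) rose in wild type cells, and 17 fell in CHOP-/- cells, with median responses of -1.05 and -0.54. Over all probe sets tested, 6.37% fell in wild type and 6.08% in CHOP-/- cells. None of the 36 was called in the response difference. The difference was positive for 28 of the 36, with a median of 0.33. An unadjusted p under 0.05 was found for 7, all positive (19.4% against 4.35% of all probe sets tested, 2.21% positive). The median ranged from 0.21 without untreated CHOP-/- array C to 0.53 without untreated CHOP-/- array D. The 7 belonged to Klf10, Klf9, Klf6, Jun and Id3, all of them transcriptional regulators.

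Klf10, a zinc finger factor induced by TGF-beta, fell in wild type cells by 1.67 and was at -0.46 in CHOP-/- cells (adjusted p = 0.265) on the probe set with the larger difference. Its signals at 8 h were 183.2, 188.5, 250.7 and 265.8 in wild type and 448.8, 280.4, 378 and 354.6 in CHOP-/- cells. They did not overlap, as on 10.8% of all tested probe sets. The difference was 1.22 (95% interval 0.48 to 1.95, adjusted p = 0.766). Jun, a subunit of AP-1, fell in wild type cells by 1.36 and was at -0.52 in CHOP-/- cells (adjusted p = 0.176), a difference of 0.84 (95% interval 0.12 to 1.55). Members with the largest falls moved in both genotypes. Fos fell by 3.30 and 3.67, Id1 fell by 2.63 and 2.45, and the nuclear receptor gene Nr4a1 fell by 4.73 and 3.76.

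**Figure D5:**
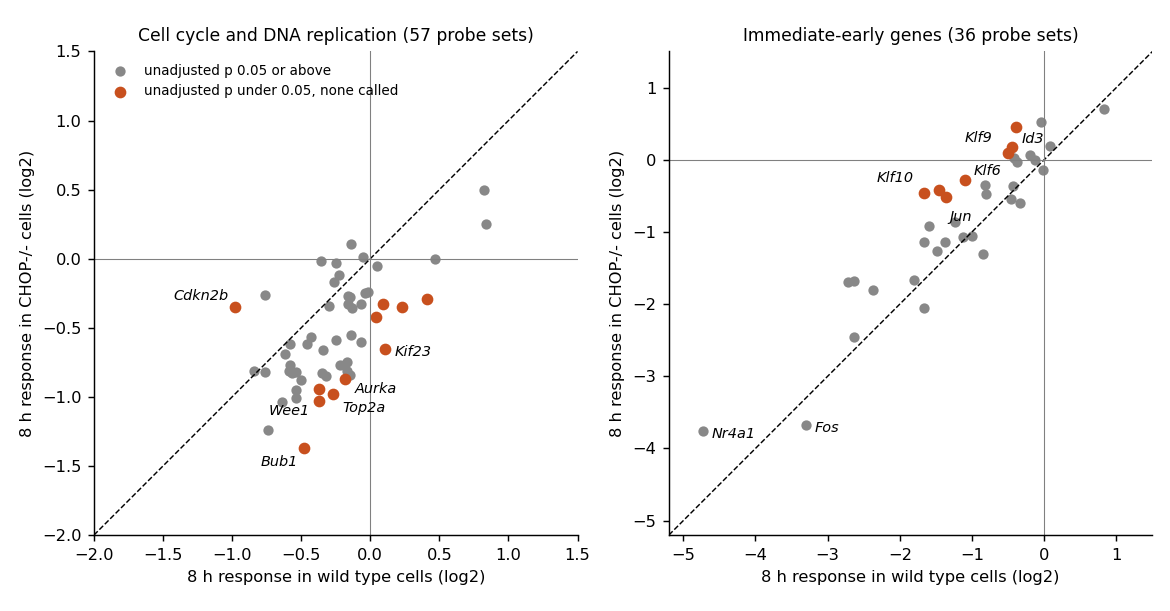
The 8 h response in CHOP-/- cells (vertical axes, log2) is plotted against that in wild type cells (horizontal axes, log2) for the 57 cell cycle and the 36 immediate-early probe sets, with a dashed line of equal response. Most cell cycle points lie below the line and most immediate-early points above it, orange points have an unadjusted p under 0.05, and none is called.

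Probe sets with the smallest unadjusted p among those not called were examined after their values were seen, so they support nothing by themselves. In the negative direction Bpgm, which makes 2,3-bisphosphoglycerate, came nearest to the threshold. It read 387.3, 445.9, 390.7 and 502.8 at 8 h in wild type cells and 120.8, 184.3, 141.5 and 180.3 in CHOP-/- cells. Like 10.8% of all tested probe sets, it showed no overlap of the genotypes at 8 h. It fell in CHOP-/- cells by 1.25, was at -0.20 in wild type cells (adjusted p = 0.48) and differed by -1.05 (95% interval -1.52 to -0.58, adjusted p = 0.179). It was called with array weights (adjusted p = 0.037) and with the random block (0.0344). Sqstm1, the autophagy receptor p62, rose in wild type cells by 0.86 and was at 0.25 in CHOP-/- cells (adjusted p = 0.145), a difference of -0.61 (95% interval -0.93 to -0.29, adjusted p = 0.494). Its treated arrays read 3929.8, 3921.3, 3020.9 and 3937.4 against 2449.5, 2363.3, 1871.6 and 2018.

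Lonp1, a mitochondrial protease, rose in wild type cells by 1.04 and was at 0.28 in CHOP-/- cells (adjusted p = 0.318), a difference of -0.76 (95% interval -1.26 to -0.27, adjusted p = 0.974). It differed between untreated genotypes too, at -1.07 (adjusted p = 0.00123). Agap1, which acts on Arf GTPases, was likewise at -0.77 untreated (adjusted p = 0.00246), rose in wild type cells by 0.77 and was at 0.02 in CHOP-/- cells (adjusted p = 0.964). Its difference was -0.75 (95% interval -1.13 to -0.37, adjusted p = 0.404). Both genes thus started lower without CHOP. The untreated CHOP-/- arrays enter both the untreated difference and the response difference, so these values are not independent.

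In the positive direction Fermt2, which encodes the integrin activator kindlin-2, rose in CHOP-/- cells by 0.58 and was at -0.12 in wild type cells (adjusted p = 0.515). It read 1292, 1092.9, 1471.7 and 1154 in treated wild type cells against 1954, 1974.7, 2115.5 and 1946.2, and differed by 0.71 (95% interval 0.39 to 1.02, adjusted p = 0.179). It was called with array weights (adjusted p = 0.037) and with the random block (0.0442). Tubb3, a beta-tubulin, fell in wild type cells by 0.40 on one probe set and was at 0.24 in CHOP-/- cells (adjusted p = 0.122), a difference of 0.65 (95% interval 0.35 to 0.94, adjusted p = 0.179), called under the same alternatives at the same adjusted p-values. The other Tubb3 probe set rose in both genotypes, by 0.74 and 1.60, with a difference of 0.86 (95% interval 0.27 to 1.45, adjusted p = 0.974). Tubulin genes are close in sequence, and this probe set may read several of them. A Tubb2a probe set differed by 0.76 (95% interval 0.33 to 1.18).

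Rnf19b, a ubiquitin ligase, fell in wild type cells by 0.63 and was at 0.38 in CHOP-/- cells (adjusted p = 0.155), a difference of 1.02 (95% interval 0.52 to 1.52, adjusted p = 0.375). The random block called it (adjusted p = 0.0485) and array weights did not (0.125). Has2, which makes hyaluronan, fell in both genotypes, by 2.85 and by 1.47. It read 162.5, 73, 139.8 and 121 in treated wild type cells and 551, 429.1, 419 and 324.6 in treated CHOP-/- cells, and differed by 1.39 (95% interval 0.65 to 2.12, adjusted p = 0.516). Bhlhe40, a transcriptional repressor of the clock and hypoxia circuits, fell in wild type cells by 2.03, was at -0.32 in CHOP-/- cells (adjusted p = 0.585) and differed by 1.71 (95% interval 0.77 to 2.65, adjusted p = 0.632). Its untreated signals spread widely in CHOP-/- cells, from 368.6 to 1393.8, against 759.3 to 1230.5 in wild type cells.

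Genes of chemokines, cytokines and NF-kappaB, among which Vcam1 is counted, held 33 tested probe sets. Of these, 4 rose and 7 fell in wild type cells and 5 rose and 2 fell in CHOP-/- cells. Over all probe sets tested, 9.03% rose and 6.37% fell in wild type cells, and 6.84% rose and 6.08% fell in CHOP-/- cells. The median response difference of the 33 was 0.12. Vcam1 was called negative on 1 probe set, and 5 had an unadjusted p under 0.05 in the positive direction, in both directions together 18.2% of the list against 4.35% of all probe sets tested. Ptgs2, the inducible cyclooxygenase, fell in wild type cells by 1.26 and was at -0.27 in CHOP-/- cells (adjusted p = 0.424), a difference of 0.99 (95% interval 0.43 to 1.55, adjusted p = 0.657). Ccl7, a monocyte chemokine, rose in CHOP-/- cells by 0.88, was at -0.14 in wild type cells (adjusted p = 0.749) and differed by 1.03 (95% interval 0.37 to 1.68, adjusted p = 0.922). The genotype difference of Ccl7 was -0.77 untreated (adjusted p = 0.16) and 0.26 at 8 h (adjusted p = 0.657). For Ptgs2 it was -0.04 untreated (adjusted p = 0.97) and 0.95 at 8 h (adjusted p = 0.0046). The response differences of Ptgs2 and Ccl7 thus had the opposite sign to that of Vcam1 and were not called. The summed leukocyte markers spread most in wild type cells, as given above. None of their 17 tested probe sets had an unadjusted p under 0.05 in the response difference, where few would be expected at 4.35%. The part of leukocyte markers in these values was not tested.

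In the absence of treatment the genotypes differed on 59 probe sets (0.87%), and at 8 h on 263 (3.88%). These counts share arrays with the response difference and are set beside it only as values. At 8 h the arrays of the 2 genotypes did not overlap on 730 probe sets (10.8%), against 323 (4.76%) untreated. After 4 h no probe set differed in response at an adjusted p under 0.05 by limma, and 263 (3.88%) had an unadjusted p under 0.05. The 4 h response difference of Ddit3 was -2.68 (SE 0.496, adjusted p = 0.115) and that of the Vcam1 probe set called at 8 h was -0.21 (SE 0.176, adjusted p = 0.997). The 4 h and 8 h differences share the untreated arrays.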

How the data were processed

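Total RNA from 24 samples was measured on a 1-colour oligonucleotide array with 12488 probe sets, 66 of them controls. The deposited values are intensity per probe set on a linear scale, not log values; the deposited arrays share a trimmed mean (248.2 to 250 after removal of 2% at each end), and the software was not given in the sources used. Gene symbols came from the array's annotation table, updated through identifiers found in the RefSeq table of GRCm38.p6 for 10817 of 10833 probe sets; 396 probe sets with several symbols and 1237 with none were tested apart.

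A pseudocount of 5.7 (the 20th percentile) was added before log2, so changes of low signals are understated, and arrays were quantile normalized. A linear model of 6 group means over 24 arrays was estimated in R 4.3.3 by limma 3.58.1. The intensity trend was on, with 18 residual and 5.1 prior degrees of freedom. Two-sided p-values were adjusted by the Benjamini-Hochberg method over all tested probe sets within a contrast. The fit was tested on simulated data. The number of arrays limits the precision. Bounds used the filter signal as the floor on each array. Named were 16 genes in all cases, every called probe set, and called members of a list, up to 4. The 12 probe sets with the smallest unadjusted p in each direction, and other list members, were chosen after their values were seen. The members, lists and genes were chosen with earlier results of these data known. Promoters and starts are from RefSeq. Figures used Python 3.11.15 and matplotlib 3.10.9.

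Letters A to D are shared by the groups. Deviations of same-letter arrays correlated at 0.39 to 0.62 between untreated and 8 h wild type cells and at 0.27 to 0.54 between the genotypes at 8 h. Untreated wild type and 8 h CHOP-/- cells correlated at 0.20 to 0.48, so 3 of the 4 groups paired. The correlation was -0.10 to 0.26 between untreated and 8 h CHOP-/- cells and -0.07 to 0.11 between the untreated genotypes. The letters therefore did not pair all groups, and the model has no block. Alternatives changed the scaling, pseudocount, filter, probe sets per gene, arrays in the fit, trend, weights and block, and left out each array in turn.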

Additional observations from a re-analysis of the deposited data

Results flagged for a closer look

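The responses of the genotypes differed on 3 probe sets by the test of the difference itself: Ddit3 at -3.43 and 1 Vcam1 probe set at -0.96 with the low-signal filter, and Car6 at -3.23 without it. Ddit3 is the deleted gene. The Vcam1 call held in 11 of 28 alternatives, and the other Vcam1 probe sets were not called.

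In 180 groups of 4 arrays checked over the named probe sets, 9 held an array far from the other 3, where chance gives about 1 in 20. The gap to the nearest array, as a share of the group's range, was 0.907 for Bpgm (wild type untreated A, low), 0.891 for Asns (wild type untreated B, low), 0.891 for Rcc2 (wild type untreated A, high) and 0.875 for Ero1a (wild type untreated D, high). In untreated CHOP-/- cells it was 0.890 for Dnajb9 (C, low), 0.887 for Asns (C, high) and 0.867 for Cpeb2 (C, low). In treated CHOP-/- cells it was 0.886 for Fermt2 (C, high) and 0.835 for Tmem45a (A, low).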

How the results depend on the processing

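The count of 2 called response differences (2 negative, 0 positive) became 1 with arrays centred on their median, with only the 16 arrays and without the intensity trend, and 0 with a pseudocount of 1, where Ddit3 and Vcam1 had an adjusted p of 0.0577. Array weights gave 5 (2 positive), adding Tubb3, Bpgm and Fermt2. Without single arrays it was 1 to 2. It was 2 with the letter as a replicate block. With the letter as a random block among groups whose letters pair, added after seeing the data (consensus correlation 0.337), it was 6 (3 positive), adding Rnf19b to the same genes. Under array weights the wild type response had 1617 calls, the untreated genotype difference 96 and that at 8 h 599. The random block gave 1617 calls for the wild type response and 693 for the genotype difference at 8 h. Without single arrays the calls were 784 to 1086 for the wild type response, 645 to 887 for the CHOP-/- response, 38 to 57 for the untreated genotype difference, 157 to 327 for that at 8 h and 0 to 1 for the 4 h response difference. The last was 1 with a pseudocount at 3 times the 20th percentile; the probe set was Ddit3 in each case. The cause of these shifts was not tested.

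Ddit3 was called in every alternative but the pseudocount of 1. Car6 was called in all alternatives run with the filter off. Vcam1 was called in 11 of 28. Of 1244 values of 45 named probe sets under alternatives, 1209 kept their sign, 18 lost a call, 7 gained one and 0 reversed a call; most of these probe sets had no call to reverse. Signals near background limit the sizes of Ddit3, Car6, Rabepk and Ero1b. Compression of bright signals, such as those of Herpud1, Hspa5 and Atf4, was not tested.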

Other observations

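Of 31 probe sets of cholesterol synthesis genes, targets of SREBP, 17 fell at 8 h in wild type and 12 in CHOP-/- cells, and 1 rose in each, with medians of -0.80 and -0.61. Over all probe sets tested, 6.37% fell in wild type and 6.08% in CHOP-/- cells. None of the 31 was called in the response difference. Idi1, an isomerase early in the pathway, had responses of -3.35 and -2.32, both called, and differed by 1.03 (95% interval 0.35 to 1.71, adjusted p = 0.974). The median difference of 0.19 ranged from 0.01, without untreated CHOP-/- array C, to 0.35.

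Growth arrest and DNA damage genes rose in part. Gadd45a rose by 2.46 in wild type and 2.64 in CHOP-/- cells (difference 0.18, 95% interval -0.49 to 0.85). Gadd45b rose in CHOP-/- cells on both probe sets, by 1.23 and 1.83, and was at 0.47 and 0.81 in wild type cells (adjusted p = 0.163 and 0.0635), with differences of 0.76 and 1.01 that were not called. Gadd45g rose in CHOP-/- cells by 0.94 and was at -0.15 in wild type cells (adjusted p = 0.776), a difference of 1.09 (95% interval 0.33 to 1.85, adjusted p = 0.985). Follistatin (Fst), which binds activin, fell by 2.10 and 0.84 and differed by 1.26 (95% interval 0.50 to 2.03, adjusted p = 0.766). Nfil3, a bZIP repressor, rose in both genotypes on both probe sets, with differences of 0.70 and 0.54. Of 42 proteasome and 27 ribosomal protein probe sets, none had an unadjusted p under 0.05 in the response difference. That share was 4.35% over all probe sets tested, so few would be expected in lists of this size. Among the 679 probe sets that lack a single gene name, 0 were called by limma, 35 (5.15%) had an unadjusted p under 0.05 and the smallest adjusted p was 0.0572.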
